A study of Mus musculus with 50 samples.

Results

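Hippocampal microglia of adult mice with a history of early-life stress (ELS) were compared with those of control (CTR) mice after an injection of phosphate-buffered saline (PBS). The comparison took the 6 mice labelled ELS and PBS at postnatal day (P)200 and the 7 mice labelled CTR and PBS at the same age, 13 of the 50 mice of the series. All mice were C57BL/6J males. The ELS pups were raised with little bedding and nesting material during their first postnatal week, and the CTR pups in standard cages. At P200 every mouse of these 2 groups received PBS intraperitoneally and was killed a few hours later. Each library came from the sorted CD45int CD11b+ cells of 1 mouse, after a Percoll step to remove myelin. Counts were listed for 53700 genes. Of these, 16696 reached 1 CPM (counts scaled to a common library size) in more than 2 mice of the series and were tested, and 7972 had a mean of at least 10 CPM over the 13 PBS mice and are called well expressed here.

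Microglia are the resident macrophages of the brain, which survey the tissue, engulf debris and synapses and secrete cytokines. They carry the glucocorticoid receptor, a transcription factor that is activated by the stress hormone corticosterone and switches on genes such as Fkbp5, Tsc22d3 and Per1. Early-life stress is known to alter the later activity of this hormone axis. Ddit4 (also called REDD1) inhibits the growth-promoting kinase complex mTORC1 and is induced by glucocorticoids, hypoxia and DNA damage. Tiparp, an ADP-ribosyltransferase, is a target and repressor of the aryl hydrocarbon receptor, which binds DNA at the letters GCGTG.

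The upstream promoter sequences of Ddit4 and Tiparp are shown because Ddit4 had the smallest p of all genes and Tiparp was 1 of the genes whose groups did not overlap. Each line holds the 250 bases before the RefSeq transcription start on GRCm38.p6, read 5′ to 3′ on the strand of the gene, chr10:59951771-59952020 (minus strand) for Ddit4 and chr3:65528197-65528446 (plus strand) for Tiparp. The capitals mark GCGTG, or CACGC where it lies on the other strand, and the GC box GGGCGG.
Ddit4: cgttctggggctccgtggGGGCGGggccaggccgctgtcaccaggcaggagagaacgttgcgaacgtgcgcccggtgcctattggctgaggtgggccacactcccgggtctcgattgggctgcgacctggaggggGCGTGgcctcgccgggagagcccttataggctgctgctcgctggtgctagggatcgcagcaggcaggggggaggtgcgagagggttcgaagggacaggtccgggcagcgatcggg
Tiparp: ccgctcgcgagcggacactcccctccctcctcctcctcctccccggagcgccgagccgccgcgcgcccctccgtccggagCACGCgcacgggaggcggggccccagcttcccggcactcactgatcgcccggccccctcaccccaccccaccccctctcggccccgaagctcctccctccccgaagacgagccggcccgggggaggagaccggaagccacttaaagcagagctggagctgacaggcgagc
Ddit4 held both motifs and Tiparp the first alone in these windows. In windows of 250 bases before to 50 after the start, GCGTG was present on either strand in 7 of the 10 called well-expressed genes that matched the promoter table, and in 10639 of all 32851 promoters (32.4%). GGGCGG was present in 8 of the 10 and in 35.7% of all promoters, and the E-box CACGTG and the cAMP response element TGACGTCA in 0 of the 10, against 7.15% and 1.79%. Afg3l2 and Plbd2 had no entry. The capitals do not overlap in either window shown. The shares are not like for like. The 10 are well-expressed genes, counted once each though Ripk1 has more than 1 promoter entry. The 32851 are single promoters, not limited to expressed genes. An excess of any motif was not tested. Such matches describe the sequence and not a binding site.

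Library totals went from 13996535 to 28616316 counts in CTR-PBS and from 18257922 to 34990227 in ELS-PBS mice. One library, that of mouse P200_1.1_CTR_PBS, stood apart. It had counts above 0 for 12854 genes, against 17424 to 19727 in the other CTR-PBS and 16485 to 19192 in the ELS-PBS mice, and ribosomal protein genes took 1.95% of its counts, against 0.979% to 1.21% and 0.890% to 1.21%. Values without it are given beside the results that it moved most. Rn18s, the 18S ribosomal RNA, took 0.509% to 0.966% of the counts in CTR-PBS and 0.181% to 0.419% in ELS-PBS mice, so the groups did not overlap in the share of this RNA, which has no poly-A tail of its own and which a poly-A library is meant to leave out. Mouse labels such as P200_17.2_ELS_PBS carry a first number that is taken here as the nest, which the labels do not define. Each nest held mice of 1 condition, so nest and condition cannot be told apart. The p-values of the main fit rest on a spread between mice that was estimated over all 50 mice of the series. They do not rest on the spread of the 13 PBS mice alone.

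The 10 microglia markers summed to 76890 to 83820 CPM in CTR-PBS and 75770 to 82040 CPM in ELS-PBS mice. Each list of markers of other cells summed to at most 616 CPM in every mouse. The 12 neuron markers summed to 4.53 to 24.4 CPM against 8.01 to 16.4, the 10 astrocyte markers to 303 to 503 against 316 to 456, the 12 oligodendrocyte markers to 75.4 to 174 against 110.0 to 182, and the 12 endothelial and pericyte markers to 39.3 to 71.9 against 30.3 to 73.5 CPM. The 14 markers of monocytes and neutrophils summed to 1.02 to 9.27 against 3.53 to 11.13 CPM, with Ly6g, S100a9, Retnlg and Chil3 at 0 in all 13 mice. Of the 13 lymphocyte markers, Cd3e, Cd3d, Cd8a, Trbc2 and Ncr1 were at 0 in all 13 mice, and the sum (486 to 616 against 505 to 578 CPM) came mainly from Ighm. The 10 markers of border-associated macrophages summed to 156 to 206 against 137 to 285 CPM, the 6 red blood cell markers to 0.0458 to 4.73 against 0.356 to 3.21 CPM and the 7 markers of choroid plexus and ependyma to 0.0509 to 8.40 against 0.109 to 1.18 CPM. The groups overlapped in each of these sums, but some single markers differed at an unadjusted p below 0.05. In 4 of the lists, those of astrocytes, neurons, endothelial cells and pericytes, and choroid plexus, all such markers were lower after ELS. Elsewhere the counts higher and lower were 2 and 1 for border-associated macrophages, 1 and 1 for monocytes and neutrophils and 1 and 0 for oligodendrocytes. The log2 fold changes were positive and negative for 3 and 6 astrocyte, 6 and 6 neuron, 3 and 6 endothelial and pericyte and 0 and 3 choroid plexus markers. The median sums in CTR-PBS and ELS-PBS mice were 338 and 398 CPM for astrocytes and 10.04 and 9.815 CPM for neurons. They were 53.87 and 65.95 CPM for endothelial cells and pericytes and 1.603 and 0.3247 CPM for choroid plexus. An unadjusted p below 0.05 with a lower level after ELS was found in 4.21% of all tested genes. It was found in 3 of 9 tested astrocyte markers (Gfap, Gja1 and Aldh1l1) and 3 of 12 neuron markers (Stmn2, Nrgn and Map2). The same held for 2 of 9 endothelial and pericyte markers (Cldn5 and Rgs5) and 2 of 3 choroid plexus markers (Enpp2 and Ttr). These 4 lists had 0 higher markers at that p. All of the lower markers had group means of at most 1.28 CPM, and Gfap alone was called. Cldn5 and Rgs5 were each above 0 in only 1 of the PBS mice, P200_18.2_CTR_PBS and P200_5.2_CTR_PBS. Ttr rested mainly on mouse P200_18.2_CTR_PBS, at 3.86 CPM with the next CTR-PBS mouse at 0.142 CPM. The list medians were -0.45 for astrocytes, -0.17 for neurons, -1.03 for endothelial cells and pericytes and -2.47 for choroid plexus, and between -0.69 and 0.05, -0.72 and 0.11, -1.15 and 0.00, and -3.29 and -0.91 as single mice were left out. In bulk RNA, fewer cells of a type and less RNA per cell cannot be told apart.

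Between ELS-PBS and CTR-PBS mice, 26 genes passed both thresholds of edgeR's quasi-likelihood test (an adjusted p below 0.05 and a fold above 1 on the log2 scale, either way), 19 of them higher (0.114% of the tested genes) and 7 lower in ELS-PBS (0.0419%). Among the 7972 well-expressed genes 12 were called (0.151%), all of them higher in ELS-PBS: Ddit4, Prpsap1, Rab6a, Nomo1, Pgp, Afg3l2, Map2k2, Tiparp, Ripk1, F8a, Plbd2 and Fut11. With no fold threshold Osbpl11 and Ttc13 joined them. The median log2 fold change was 0.01 over all tested genes and -0.01 over the well-expressed genes. The fit behind these calls does not use the nest number, which 2 pairs of CTR-PBS mice and 1 pair of ELS-PBS mice share. With nest as a random effect in limma voom 0 genes were called (1696 at an unadjusted p under 0.05), and with counts summed per nest 7 were, 6 of them well expressed. The count also rested on single mice and on the fit. It was 75 without mouse P200_15.1_CTR_PBS, 63 without mouse P200_17.2_ELS_PBS and 1 without mouse P200_1.1_CTR_PBS, mouse P200_5.1_CTR_PBS, mouse P200_4.1_ELS_PBS or mouse P200_20.2_ELS_PBS, and 0 in a fit of the 13 PBS mice alone, which had 1491 genes at an unadjusted p under 0.05.

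**Figure D1:**
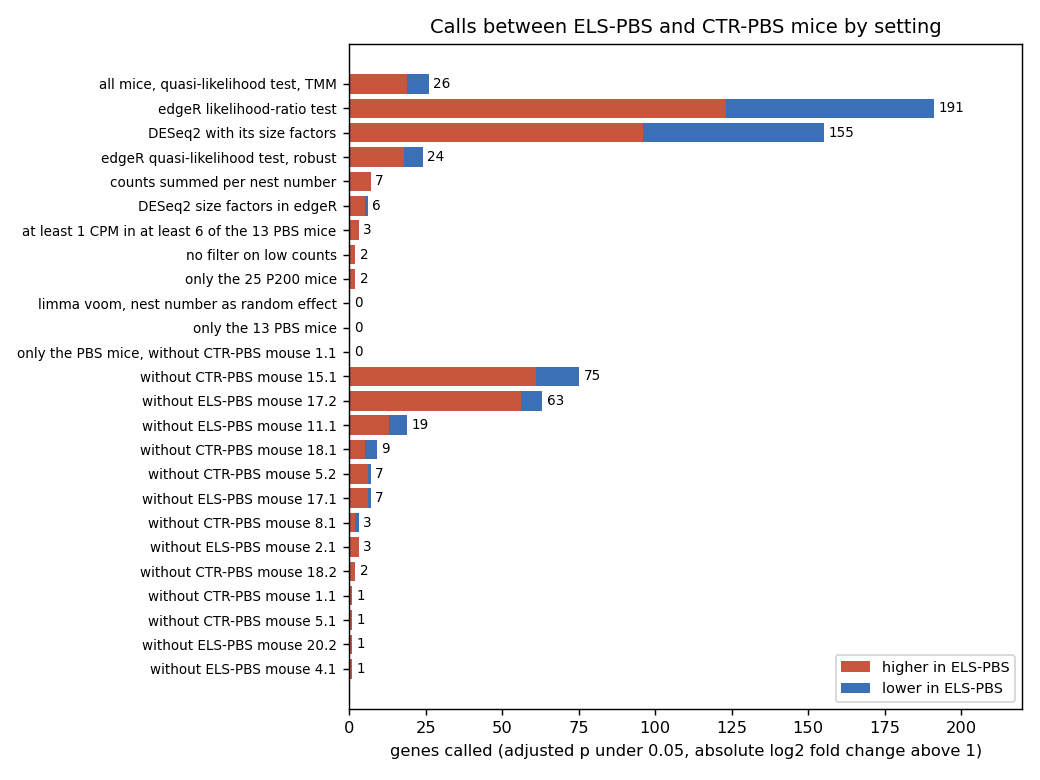
Number of genes called between ELS-PBS and CTR-PBS mice (horizontal axis, genes past both thresholds) for each way of fitting the counts (vertical axis), with genes higher in ELS-PBS in red and lower in blue. The count went from 0 with the 13 PBS mice alone to 191 with edgeR's likelihood-ratio test, and was 26 with the quasi-likelihood test on all mice.

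Ddit4 (ENSMUSG00000020108, chromosome 10 of GRCm39, 59785491 to 59788492, minus strand) rose with a log2 fold change of 3.39 (SE 0.58, adjusted p = 0.00685), with group means of 8.69 ± 4.38 CPM (CTR-PBS, SD, n = 7) and 91.5 ± 149 CPM (ELS-PBS, SD, n = 6). The CTR-PBS mice were at 5.80, 10.2, 7.40, 6.74, 5.56, 18.0 and 7.14 CPM. The ELS-PBS mice were at 19.23 CPM (mouse P200_2.1_ELS_PBS), 388 CPM (mouse P200_4.1_ELS_PBS), 97.3 CPM (mouse P200_11.1_ELS_PBS), 5.71 CPM (mouse P200_17.1_ELS_PBS), 7.24 CPM (mouse P200_17.2_ELS_PBS) and 31.3 CPM (mouse P200_20.2_ELS_PBS). So 4 ELS-PBS mice were above every CTR-PBS mouse, and the 2 mice that share nest number 17 lay within the CTR range. Without mouse P200_4.1_ELS_PBS the log2 fold change was 1.88, with an adjusted p of 0.104, and Ddit4 passed both thresholds in the other 12 of 13 fits that each left out 1 mouse. The exact permutation test of mean log2 CPM gave p = 0.0490 over mice (two-sided, 6 against 7) and p = 0.0318 over nest means (5 against 5).

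Among the called genes of kinase and ADP-ribose signalling, Ripk1, the kinase that relays signals from TNF receptor 1 to survival or cell death, was at 2.90 to 14.4 CPM (median 10.6) in CTR-PBS and 16.2 to 32.1 CPM (median 24.7) in ELS-PBS mice, a log2 fold change of 1.43 (SE 0.33, adjusted p = 0.0466). Tiparp was at 8.72 to 20.4 CPM (median 15.3) and 24.0 to 51.7 CPM (median 32.4), with a log2 fold change of 1.105 (SE 0.25, adjusted p = 0.0466). In both genes every ELS-PBS mouse was above every CTR-PBS mouse. Map2k2 (MEK2), which phosphorylates the kinases ERK1 and ERK2, was at 11.7 to 30.9 CPM (median 20.4) and 23.2 to 75.0 CPM (median 45.8), a log2 fold change of 1.17 with the groups overlapping through mouse P200_17.2_ELS_PBS and mouse P200_15.1_CTR_PBS.

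Called genes of membrane traffic, the secretory pathway and the lysosome were Rab6a, Nomo1, Fut11 and Plbd2. Rab6a, a GTPase of Golgi transport, was at 3.10 to 21.5 CPM (median 15.5) in CTR-PBS and 19.8 to 62.2 CPM (median 36.8) in ELS-PBS mice (log2 fold change 1.47). Nomo1, a protein of the endoplasmic reticulum membrane, was at 11.0 to 26.1 and 22.2 to 50.2 CPM (1.16). The fucosyltransferase gene Fut11 was at 26.5 to 61.0 and 43.0 to 136 CPM (1.096), and Plbd2, a lysosomal protein, at 10.1 to 38.5 and 28.9 to 149 CPM (1.72). In all 4 genes mouse P200_17.2_ELS_PBS was the lowest of its group and lay within the CTR range. Osbpl11, which encodes a lipid-binding protein of the oxysterol-binding family, passed the adjusted threshold with a log2 fold change of 0.89, from 68.0 ± 13 to 126 ± 41 CPM. Crtap, needed for the hydroxylation of collagen in the endoplasmic reticulum, was below the mean of 10 CPM and had the second smallest p, from 0.662 to 5.49 CPM in CTR-PBS to 2.54 to 32.2 CPM in ELS-PBS mice (log2 fold change 2.31, SE 0.45, adjusted p = 0.0308).

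Of the called genes of metabolism and mitochondria, Prpsap1, a regulatory partner of the enzymes that make the nucleotide precursor phosphoribosyl pyrophosphate, was at 21.2 to 64.8 CPM (median 41.2) in CTR-PBS and 62.4 to 109 CPM (median 88.8) in ELS-PBS mice (log2 fold change 1.14, SE 0.23, adjusted p = 0.0348). Pgp, a phosphatase that removes side products of glycolysis, was at 4.26 to 12.0 and 9.295 to 31.3 CPM (1.36). Afg3l2, a protease subunit of the inner mitochondrial membrane, was at 3.77 to 16.5 and 9.199 to 55.7 CPM (1.54). F8a, which encodes a partner of huntingtin, was at 3.26 to 7.60 CPM (median 5.56) and 8.097 to 26.0 CPM (median 20.5), with a log2 fold change of 1.78 and no overlap of the groups. Of the 13 fits that each left out 1 mouse, Ddit4 was called in 12, Prpsap1 in 6 and each of the other 10 genes, all at an adjusted p of 0.0466, in at most 3.

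**Figure D2:**
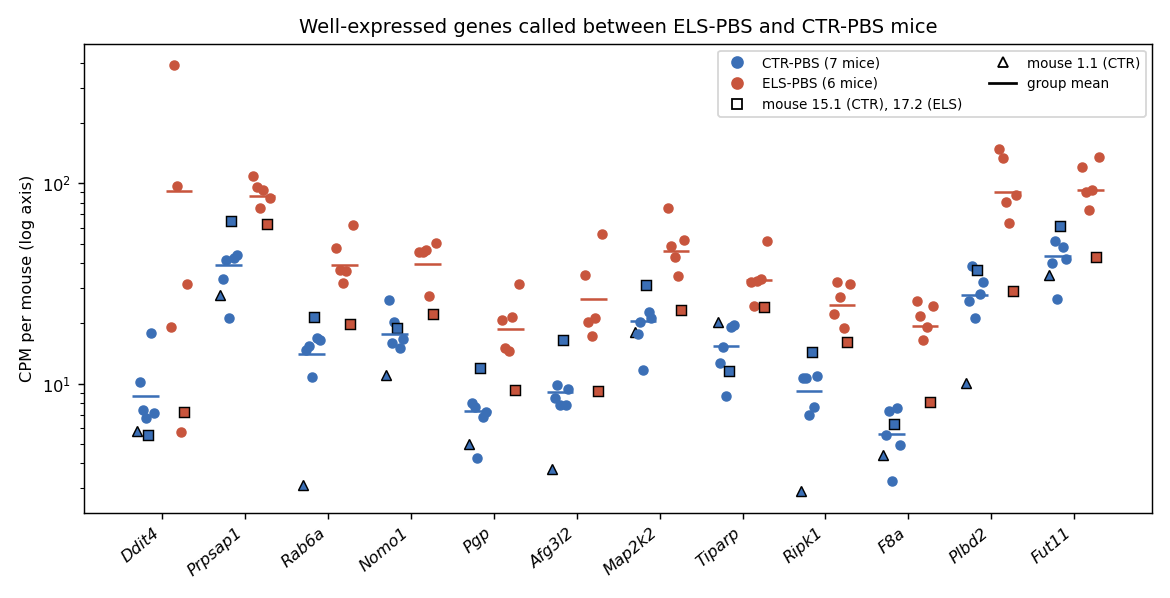
CPM per mouse (vertical axis, log scale) of the 12 well-expressed genes called between ELS-PBS (red) and CTR-PBS (blue) mice, with the group mean as a line, mouse P200_15.1_CTR_PBS and mouse P200_17.2_ELS_PBS as squares and mouse P200_1.1_CTR_PBS as a triangle. In Tiparp, Ripk1 and F8a all ELS-PBS mice sit above all CTR-PBS mice, and in most of the other genes mouse P200_17.2_ELS_PBS reaches into the range of the CTR-PBS mice.

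ELS-PBS mice P200_2.1_ELS_PBS, P200_4.1_ELS_PBS, P200_11.1_ELS_PBS and P200_20.2_ELS_PBS were above the highest CTR-PBS mouse in 12 of the 12, mouse P200_17.1_ELS_PBS in 11 and mouse P200_17.2_ELS_PBS in 3. Here mouse P200_17.2_ELS_PBS was the lowest of the ELS-PBS mice in 11 of the 12 genes, and mouse P200_15.1_CTR_PBS the highest of its group in 7. Over the 12 genes and Osbpl11 and Ttc13, exact two-sided permutation p-values went from 0.00117, the smallest that 6 against 7 mice can give, to 0.0490, and over nest means from 0.00794, again the smallest possible, to 0.0318. The genes were chosen on this contrast, so these values describe them and add no evidence. Groups did not overlap in 34 of the 7972 well-expressed genes (0.426%), 18 higher and 16 lower in ELS-PBS.

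The other 13 called genes had a mean under 10 CPM, and the largest folds among them came from genes that were near 0 in 1 group. Il27ra, a subunit of the receptor for the cytokine IL-27, had 0 counts over the 7 CTR-PBS mice. Over the ELS-PBS mice it had 138, in 4 of 6. Mouse P200_2.1_ELS_PBS was at 3.33 CPM and the other ELS-PBS mice at or under 0.463 CPM, so the value rested mainly on 1 mouse. Against a limit of 3 counts over the group, Il27ra was at least 47.5-fold higher. By the same limit the predicted genes Gm42064 (87 counts in 5 ELS-PBS mice) and Gm20667 (84 counts in 3 mice) were at least 29.9-fold and 28.9-fold higher. Neil3, a DNA glycosylase, had 7 counts in the controls and 111 after ELS, Klhl32 had 8 and 109 and Tmem178b 1 and 64.

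Lower in ELS-PBS were Ptpn7, Serpinb6b, Cox4i2, H2-Q5, Gfap, Htatip2 and 2700046G09Rik. All 159 counts of Ptpn7, a phosphatase of leukocytes, came from mouse P200_1.1_CTR_PBS, and without that mouse its log2 fold change was 0.00. Serpinb6b had 287 counts in 3 CTR-PBS mice, of which mouse P200_1.1_CTR_PBS was at 12.9 CPM and the others at or under 0.834 CPM, against 1 count in ELS-PBS. Its reads and those of the MHC gene H2-Q5 (98 counts against 1) may be split with close paralogs. Gfap, the intermediate filament of astrocytes, had 206 counts, from 5 of the 7 controls, against 15 from 2 of the 6 ELS-PBS mice. Its adjusted p was 0.0466 with all mice and 0.0836 without mouse P200_1.1_CTR_PBS, which was at 0 CPM for Gfap. The Gfap difference itself was not smaller without that mouse, with a log2 fold change of -3.80 against -3.58 with it. Before adjustment, the p of the quasi-likelihood test for Gfap fell from 6.155e-05 to 1.089e-05. Gja1 (91 counts against 12) and Aldh1l1 (152 against 17) also had an unadjusted p below 0.05, and the part of other cells in this result was not tested. Cox4i2, an isoform of a subunit of cytochrome c oxidase, had 23 counts, from 3 of the controls, and 0 after ELS. Htatip2 was at 6.67 to 19.9 CPM in CTR-PBS and 4.22 to 8.07 CPM in ELS-PBS mice (log2 fold change -1.005).

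In the list of 24 genes for the glucocorticoid receptor and its targets, 1 was called (Ddit4), 9 were higher at an unadjusted p under 0.05, against 5.5% of all tested genes, and 1 was lower, against 4.21%. This list and those below were chosen with earlier results of these data known. Their counts and medians therefore describe them and add no evidence. The list did not move in one direction. Of its 24 log2 fold changes 15 were positive and 9 negative, from -0.82 to 4.75. The median log2 fold change of the list was 0.41. It was 0.31 without mouse P200_1.1_CTR_PBS, 0.40 without mouse P200_4.1_ELS_PBS, and between 0.26 and 0.48 in the fits that each left out 1 mouse. Without mouse P200_4.1_ELS_PBS 6 members were higher and 2 lower at an unadjusted p under 0.05. The median was 0.16 when only genes with at least 1 CPM in at least 6 of the 13 PBS mice were kept, and 0.22 with nest as a random effect. Apart from Ddit4 no member passed the adjusted threshold. Tsc22d3 (GILZ), an anti-inflammatory target of the receptor, was at 97.5 to 199.7 CPM (median 153) in CTR-PBS and 118 to 716 CPM (median 215.2) in ELS-PBS mice, with a log2 fold change of 0.91 (SE 0.25, adjusted p = 0.0968). It was above every CTR-PBS mouse in ELS-PBS mice P200_4.1_ELS_PBS (716 CPM), P200_11.1_ELS_PBS (339 CPM) and P200_20.2_ELS_PBS (301 CPM), 3 of the mice that were high in Ddit4, while mice P200_2.1_ELS_PBS, P200_17.1_ELS_PBS and P200_17.2_ELS_PBS lay within the CTR range. Fkbp5, a co-chaperone that dampens the receptor, was at 27.2 to 65.9 CPM (median 56.2) in CTR-PBS and at 63.2 to 66.9 CPM in 4 ELS-PBS mice, 126 CPM in mouse P200_11.1_ELS_PBS and 176 CPM in mouse P200_4.1_ELS_PBS (log2 fold change 0.83, SE 0.25, adjusted p = 0.134). For Per1, a clock gene that the receptor also drives, mice P200_4.1_ELS_PBS (38.5 CPM) and P200_11.1_ELS_PBS (18.8 CPM) were again the highest, against at most 9.57 CPM in CTR-PBS. Without mouse P200_4.1_ELS_PBS the log2 fold changes of Tsc22d3, Fkbp5 and Per1 were 0.39, 0.56 and 0.74.

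Cebpd, a transcription factor of acute-phase genes, was at 5.95 to 22.6 CPM (median 12.4) in CTR-PBS and 9.77 to 97.3 CPM (median 36.7) in ELS-PBS mice, lowest in mouse P200_17.2_ELS_PBS and highest in mouse P200_20.2_ELS_PBS (log2 fold change 1.79, adjusted p = 0.0740). Dusp1, a phosphatase that switches off MAP kinases, was at 0.305 to 10.8 CPM and 4.74 to 19.06 CPM (log2 fold change 1.53, adjusted p = 0.172). Zbtb16 was above the CTR-PBS mice in mice P200_4.1_ELS_PBS (8.68 CPM) and P200_20.2_ELS_PBS (2.39 CPM) and at or under 0.0479 CPM in the other 4 ELS-PBS mice. Hsd11b1, which regenerates active corticosterone, had 0 counts in CTR-PBS and 30 in ELS-PBS mice, nearly all in mouse P200_2.1_ELS_PBS, and Map3k6 had 6 and 75. Cdkn1a (p21) was lower, 14.1 to 28.0 against 8.08 to 17.4 CPM (log2 fold change -0.52, adjusted p = 0.253). The receptor itself, Nr3c1, was at 134 to 201 CPM in CTR-PBS and 111 to 224 CPM in ELS-PBS mice (log2 fold change -0.10, SE 0.26), and Sgk1, another target, at 752 to 1005 and 749 to 1182 CPM (0.12, SE 0.19). The mineralocorticoid receptor Nr3c2 had a log2 fold change of -0.45 (SE 0.50).

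**Figure D3:**
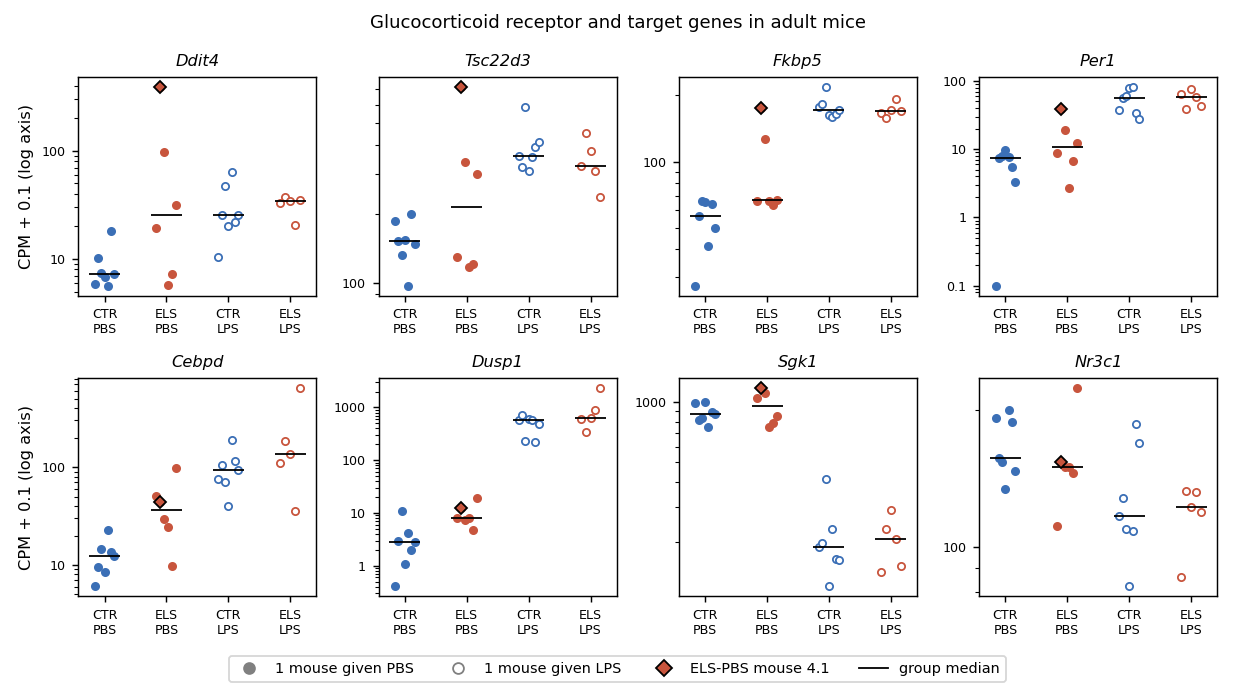
CPM plus 0.1 per mouse (vertical axes, log scale) of 8 genes of the glucocorticoid list in CTR (blue) and ELS (red) mice given PBS (filled) or lipopolysaccharide (LPS, open), with group medians as lines and mouse P200_4.1_ELS_PBS as a diamond. In Ddit4, Tsc22d3, Fkbp5 and Per1 mouse P200_4.1_ELS_PBS was the highest ELS-PBS mouse at 388, 716, 176 and 38.5 CPM, and Nr3c1 overlapped between all 4 groups.

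Of the 19 tested circadian clock genes 3 were higher at an unadjusted p under 0.05 and 0 lower, with a list median of -0.03. Besides Per1 these were the repressors Nr1d2 (31.1 ± 15 to 59.6 ± 18 CPM, log2 fold change 0.94, adjusted p = 0.217) and Cry1 (3.75 ± 1.9 to 10.9 ± 8.9 CPM, 1.53, adjusted p = 0.273). Of 29 immediate early genes, which also respond to tissue dissociation, 6 were higher and 2 lower, with a median of 0.25 that went from 0.17 to 0.46 as single mice were left out, and was 0.04 with the stricter filter and 0.57 with counts summed per nest. Without mouse P200_1.1_CTR_PBS, at 0 CPM for Cry1 and Per1, their log2 fold changes were 1.308 and 1.097. The part of dissociation in the other results was not tested.

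Among the 30 pathway lists the lowest median was that of the cytosolic ribosomal proteins, the protein parts of the ribosome that translates nuclear messages. Of its 79 tested members 78 had a negative log2 fold change, 37 were lower at an unadjusted p under 0.05 and none was called, with a median of -0.33. This rested on mouse P200_1.1_CTR_PBS. Without it the median was -0.17 and 3 members were lower at an unadjusted p under 0.05, and all 79 were negative. Rpl39 was at 22.9 to 80.6 CPM in CTR-PBS, with mouse P200_1.1_CTR_PBS the highest and the next at 34.3 CPM, and at most 29.9 CPM in ELS-PBS mice (log2 fold change -0.77, and -0.44 without mouse P200_1.1_CTR_PBS). Rpl30 and Rpl36a were at -0.56 and -0.58, and at -0.33 each without mouse P200_1.1_CTR_PBS. Among 75 tested nuclear genes of oxidative phosphorylation, of 89 listed, 68 were negative, with a median of -0.28 and 15 lower at an unadjusted p under 0.05, against a median of -0.16 and 1 lower without mouse P200_1.1_CTR_PBS. Cox7a2, a subunit of cytochrome c oxidase, did not overlap between the groups (33.1 to 80.2 against 24.8 to 30.4 CPM, log2 fold change -0.62, adjusted p = 0.238, and -0.41 without mouse P200_1.1_CTR_PBS, which was at 80.2 CPM with the next at 42.7).

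Mitochondrial ribosomal proteins (77 tested, median -0.16, and -0.13 without mouse P200_1.1_CTR_PBS) and proteasome subunits (40 tested, median -0.15, and -0.09) were on the same side, with 64 and 36 negative members. Mrps30 was the only one of the first list higher at an unadjusted p under 0.05, with 5.17 ± 2.5 CPM in CTR-PBS and 21.4 ± 21 in ELS-PBS mice (log2 fold change 2.05, adjusted p = 0.0571). Eif3f, a translation initiation factor, was higher too (10.4 ± 8.4 to 34.6 ± 21 CPM, log2 fold change 1.73, adjusted p = 0.152), while the 39 translation factors had a median of -0.08. The 8 tested genes of the mitochondrial genome had a median of -0.11 with 0 at an unadjusted p under 0.05.

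Ribosomal RNA did not pass the adjusted threshold. Rn18s was at 5056 to 9814 CPM in CTR-PBS and 1794 to 4135 CPM in ELS-PBS mice (log2 fold change -1.37, SE 0.36, adjusted p = 0.0766, and -1.27 without mouse P200_1.1_CTR_PBS), and the mitochondrial rRNA mt-Rnr2 at 2057 to 3411 and 921 to 2023 CPM (-0.59, adjusted p = 0.490). The groups did not overlap in these genes, and overlapped in mt-Rnr1, at 258 to 401 and 104 to 330 CPM (-0.49, adjusted p = 0.766). The fold change also varied with gene length. When the well-expressed genes were divided into 5 bins by total exonic length in GENCODE M39, the median log2 fold change went from -0.09 in the shortest bin (median length 2649 bases) through -0.03, 0.01 and 0.03 to 0.04 in the longest (13170 bases). It was -0.06 and 0.02 in the shortest and longest bins without mouse P200_1.1_CTR_PBS, and -0.07 and 0.04 without the genes of the ribosomal and oxidative phosphorylation lists. The cytosolic ribosomal protein genes had a median exonic length of 2829 bases. Between ELS-LPS and CTR-LPS mice the order was the opposite, from 0.11 to -0.11. The part of rRNA and gene length in the list medians was not tested.

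**Figure D4:**
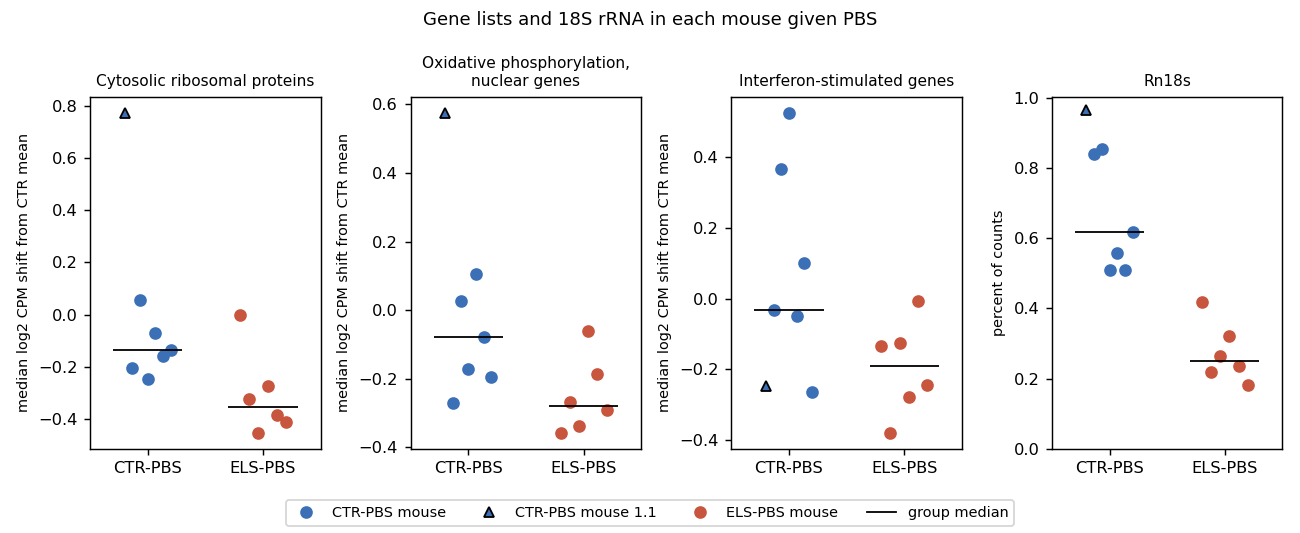
Each point is 1 mouse given PBS. The first 3 panels show the median shift in log2 CPM of a list's genes from the mean of the CTR-PBS mice (vertical axes, log2), the last the percent of counts on Rn18s, with group medians as lines and mouse P200_1.1_CTR_PBS as a triangle. The library of mouse P200_1.1_CTR_PBS was at 0.78 and 0.58 for the ribosomal and oxidative phosphorylation lists, above all other mice, and the groups did not overlap for Rn18s (0.509% to 0.966% against 0.181% to 0.419%).

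Interferon-stimulated genes, the antiviral genes switched on by interferons, had a median of -0.23 over 35 tested members, 27 of them negative. At an unadjusted p under 0.05, 7 were lower, against 4.21% of all tested genes, and 0 higher, against 5.5%, and none was called. In contrast to the ribosomal list, the median did not move towards 0 without mouse P200_1.1_CTR_PBS (-0.27, 5 lower), and was between -0.34 and -0.20 as single mice were left out. Ifitm3, which blocks virus entry, was at 3.86 to 27.0 CPM in CTR-PBS and 1.52 to 8.01 CPM in ELS-PBS mice (log2 fold change -1.27, adjusted p = 0.152). Rtp4 was at 15.23 to 35.1 and 8.26 to 21.7 CPM (-0.84, adjusted p = 0.194) and Usp18, a brake on interferon signalling, at 10.1 to 40.2 and 5.50 to 11.16 CPM (-1.03, adjusted p = 0.253), each with mouse P200_1.1_CTR_PBS the highest. Without that mouse the log2 fold changes of Ifitm3, Rtp4 and Usp18 were -0.76, -0.74 and -0.68, and Usp18 had an unadjusted p of 0.0626. The groups overlapped in all 3 genes.

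Of 30 genes that microglia raise around damage and in neurodegeneration (disease-associated microglia), 0 were higher and 5 lower at an unadjusted p under 0.05, with a median of -0.20 (-0.15 and 3 lower without mouse P200_1.1_CTR_PBS). It rested most on mouse P200_5.2_CTR_PBS, without which it was -0.08. The median shift of these genes from the CTR-PBS mean was -0.43 in mouse P200_17.2_ELS_PBS and -0.19 to -0.02 in the other ELS-PBS mice. Clec7a, the receptor for fungal glucans, was at 11.8 to 26.0 CPM in CTR-PBS and 8.88 to 13.2 CPM in ELS-PBS mice (log2 fold change -0.86, SE 0.27, adjusted p = 0.157). Tyrobp, the adaptor that carries the signal of Trem2, was at 876 to 1675 and 700 to 949 CPM (-0.36, and -0.22 without mouse P200_1.1_CTR_PBS), and B2m, the light chain of MHC class I, at 2187 to 2940 and 1760 to 2260 CPM (-0.35). The 30 genes of the homeostatic signature had a median of -0.04, with 1 higher and 0 lower at an unadjusted p under 0.05.

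For TNF receptor and RIPK signalling, Ripk1 was the only one of 33 tested members called, and also the only one at an unadjusted p under 0.05 (list median 0.06). None of 14 NF-kB genes reached an unadjusted p of 0.05 (median 0.12, and 0.04 without mouse P200_1.1_CTR_PBS). Of the 9 tested genes of the aryl hydrocarbon receptor pathway 2 were higher, Tiparp and the repressor Ahrr (0.121 ± 0.15 to 1.23 ± 1.2 CPM, log2 fold change 3.34, adjusted p = 0.313), with a list median of -0.04 (0.01 without mouse P200_1.1_CTR_PBS). Ahr itself had 0 counts in all 13 mice. Only unique exonic reads were counted, and whether Ahr was expressed was not tested in another way.

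The ubiquitin lists had small medians. The counts of their members and of the lists after them are at an unadjusted p under 0.05, which 5.5% of all tested genes passed as higher and 4.21% as lower, and several counts lie near these shares. TRIM ligases had 3 of 33 higher and 0 lower with a median of 0.20 (0.13 without mouse P200_1.1_CTR_PBS), among them Trim27 (17.8 ± 6.2 to 39.3 ± 18 CPM, log2 fold change 1.14, adjusted p = 0.111) and Trim35, whose groups did not overlap (113 to 235 against 243 to 290 CPM, log2 fold change 0.41, and 0.31 without mouse P200_1.1_CTR_PBS, the lowest). Cullin-RING ligase subunits had 6 of 54 higher and 1 lower (median 0.02, and -0.01 with 4 higher and 0 lower without mouse P200_1.1_CTR_PBS), including Fbxw2 (0.52, adjusted p = 0.105) and Kctd5 (1.12, adjusted p = 0.299). Among 54 deubiquitinating enzymes 2 were higher and 1 lower (median 0.07, and 0.03 without mouse P200_1.1_CTR_PBS). Usp22, the deubiquitinase of the SAGA complex, did not overlap between the groups, with 44.2 to 153 CPM in CTR-PBS and 157 to 231 CPM in ELS-PBS mice (log2 fold change 0.79, adjusted p = 0.115, and 0.65 without mouse P200_1.1_CTR_PBS, the lowest).

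Gas6, the bridging ligand through which the TAM receptors Tyro3, Axl and Mertk bind dying cells, was just short of the adjusted threshold. It was at 52.97 to 100.2 CPM (median 84.4) in CTR-PBS and 88.6 to 238 CPM (median 194) in ELS-PBS mice, with a log2 fold change of 1.16 (SE 0.28, adjusted p = 0.0564), and mouse P200_17.2_ELS_PBS was again the lowest ELS-PBS mouse. It was the only one of the 5 TAM genes at an unadjusted p under 0.05. Among 37 phagocytosis receptors 2 were higher and 1 lower. Of 31 cytokine and chemokine genes 5 were higher and 2 lower, with a median of -0.01, including Il27ra and the IL-6 receptor Il6ra (132 to 248 against 217 to 575 CPM, log2 fold change 1.13, adjusted p = 0.116).

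In the lysosome list, 2 of 49 were lower and 2 higher (median -0.04). One of the higher genes was the calcium channel Mcoln1 (log2 fold change 0.80, adjusted p = 0.163). Among 33 genes of cholesterol and lipid handling 2 were higher and 1 was lower (median -0.03). Hspa4, a chaperone, was at 34.6 ± 7.9 and 69.1 ± 22 CPM (log2 fold change 1.00, adjusted p = 0.107), and the splicing factors Srsf6 and Srsf4 had log2 fold changes of 0.85 and 0.87 (adjusted p = 0.0846 and 0.135). Among 44 microtubule genes 1 was higher and 6 were lower (median 0.03, and 0 and 4 with a median of 0.00 without mouse P200_1.1_CTR_PBS), and the counts higher and lower were 3 and 1 of 36 ubiquitin E1 and E2 enzymes, 2 and 0 of 44 actin regulators, 1 and 0 of 18 complement genes and 1 and 1 of 28 TGF-beta pathway genes.

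Markers of border-associated macrophages did not differ in one direction. Mrc1 (CD206) was lower, at 2.79 to 9.41 CPM in CTR-PBS and 1.03 to 5.38 CPM in ELS-PBS mice (log2 fold change -1.17, adjusted p = 0.0714), while Cbr2 was at 0 in 6 of 7 CTR-PBS mice and above 0 in 5 of 6 ELS-PBS mice (highest 0.747 CPM, adjusted p = 0.0740) and Pf4 was at 0.131 ± 0.17 and 0.631 ± 0.38 CPM. Their part in the other results was not tested. The 16 genes that the study names for this comparison were chosen by it on these same mice, so their directions are not independent evidence. Of these, 11 were higher and 5 lower at an unadjusted p under 0.05, and Ripk1 was the only one called.

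**Figure D5:**
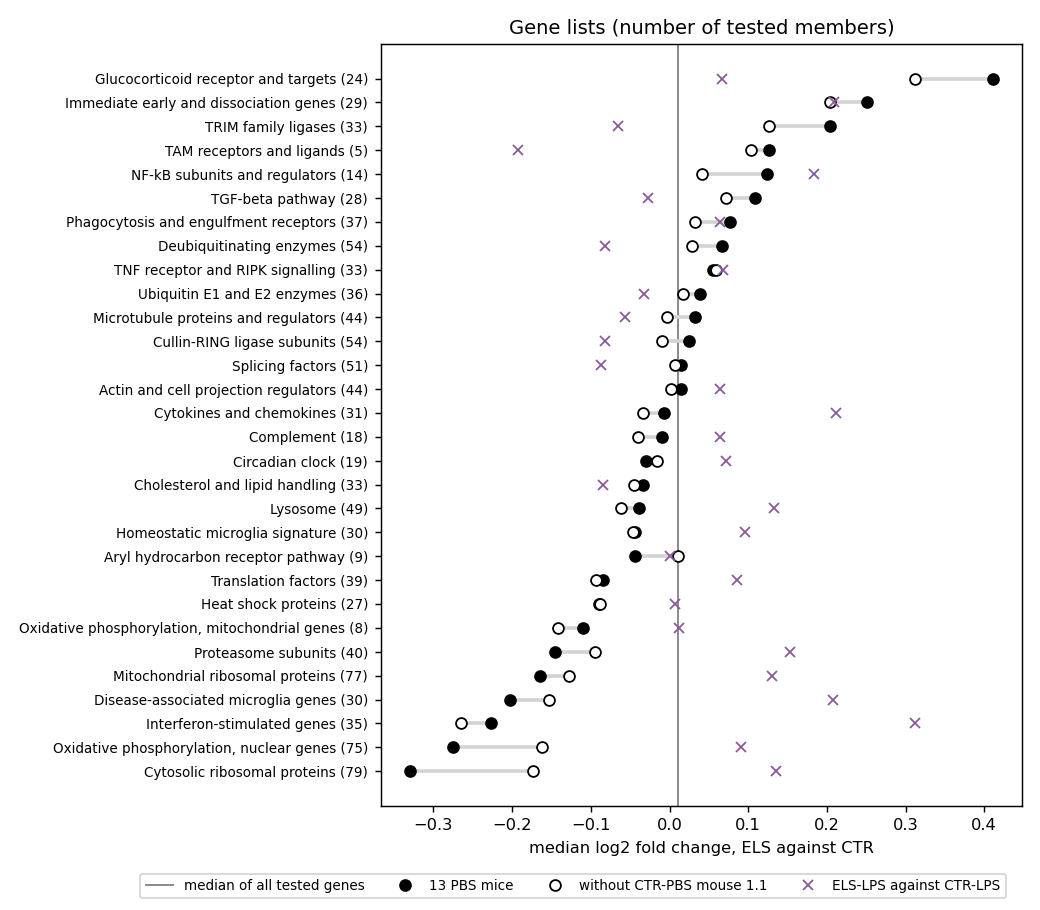
Median log2 fold change (horizontal axis) of 30 gene lists (vertical axis, number of tested members in parentheses) between ELS-PBS and CTR-PBS mice (filled), without mouse P200_1.1_CTR_PBS (open) and between ELS-LPS and CTR-LPS mice (crosses), with the median of all tested genes as a line. The glucocorticoid list had the highest median (0.41, and 0.16 under a stricter filter) and the cytosolic ribosomal proteins the lowest (-0.33, and -0.17 without mouse P200_1.1_CTR_PBS). The lists were chosen with earlier results of these data known.

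No well-expressed gene was called lower in ELS-PBS. The 10 well-expressed genes of smallest p that were lower had adjusted p-values from 0.0740 to 0.134, Cct2, Rab20, Rn18s, 2410006H16Rik, Itpa, Nptn, Dubr, Gm10800, Rpl39 and Rfx7. Cct2, a subunit of the chaperonin that folds actin and tubulin, was at 58.7 to 92.4 CPM in CTR-PBS and 40.4 to 63.7 CPM in ELS-PBS mice (log2 fold change -0.57, and -0.50 without mouse P200_1.1_CTR_PBS). Rab20, a GTPase of endosomes and phagosomes, was at 38.1 to 67.3 and 31.9 to 46.8 CPM (-0.59, and -0.54 without mouse P200_1.1_CTR_PBS). For Itpa, Nptn, Dubr, 2410006H16Rik and Rfx7 mouse P200_1.1_CTR_PBS was the highest CTR-PBS mouse, and without it their log2 fold changes were between -0.72 and -0.44, against -1.27 to -0.69 with it. Gm10800 rested on mouse P200_15.1_CTR_PBS at 560.0 CPM, next to 9.85 CPM in the second highest. At an unadjusted p under 0.05, 400 well-expressed genes were higher and 283 lower in ELS-PBS, and 324 and 85 without mouse P200_1.1_CTR_PBS.

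The same contrast in mice given LPS, a bacterial product that activates innate immunity, used other mice of the same nests (5 ELS-LPS, 7 CTR-LPS). It called 0 genes in edgeR's quasi-likelihood test, with 353 higher (2.11%) and 445 lower (2.67%) at an unadjusted p under 0.05, and DESeq2 called 2. The 12 called well-expressed genes had a median log2 fold change of 1.397 with PBS and 0.38 with LPS (0.07 to 0.95). They were chosen for a log2 fold change above 1 with PBS. That choice favours a smaller value in any contrast not used for it. Map2k2 (0.71) and Plbd2 (0.95) had an unadjusted p under 0.05 with LPS. Ddit4 was at 10.3 to 63.6 CPM in CTR-LPS and 20.7 to 37.6 CPM in ELS-LPS mice, a log2 fold change of 0.07 (SE 0.57). A test of the difference between the PBS and the LPS contrast over all genes called 0, with 980 at an unadjusted p under 0.05 (5.87%) and a smallest adjusted p of 0.127, and DESeq2 called 15. The lists of ribosomal proteins, proteasome subunits and interferon-stimulated genes, with medians of -0.33, -0.15 and -0.23 under PBS, had 0.14, 0.15 and 0.31 under LPS. For Ifitm3, Rtp4 and Usp18 the difference had an unadjusted p of 0.00041, 0.0027 and 0.0023, none of which passed the adjusted threshold. These genes were chosen by their p in the PBS contrast, which is part of the difference, so the values describe them and add no evidence. Mouse P200_1.1_CTR_PBS was the highest CTR-PBS mouse in each, and the difference was not fitted without it.

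In pups at P9, directly after the stress (13 P9-ELS, 12 P9-CTR), the 12 genes had a median log2 fold change of 0.09 (-0.20 to 0.28). Of them 0 had an unadjusted p under 0.05, against 5.47% of all tested genes. As with LPS, their choice on the P200 contrast with PBS favours smaller values here. The stress effect differed between P200 with PBS and P9 for 5 genes at both thresholds (0.0299% of those tested), all more positive at P200, of which Ddit4 was the only one with a mean of at least 10 CPM (difference 3.60, adjusted p = 0.0324). At P9 the mean of Ddit4 was 6.26 ± 2.35 CPM in the 12 P9-CTR and 5.48 ± 2.36 CPM in the 13 P9-ELS pups (SD). The difference was not fitted without mouse P200_4.1_ELS_PBS, the highest for Ddit4 at 388 CPM. The other 4 were Slc10a6, Plet1, Vwa5b2 and Gm29927, each with means under 2 CPM in the PBS mice. Their log2 fold changes at P9 were negative, from -4.29 to -2.68. When only genes with at least 1 CPM in at least 6 of the 13 PBS mice were kept, 0 genes were called for this difference.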

How the data were processed

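Poly-A RNA of sorted microglia was sequenced by the authors, who trimmed reads with cutadapt 2.10, aligned them with STAR to GRCm39 and counted unique exonic reads per gene with HTSeq 0.11.0. The annotation release and strand setting are not given in the sources used here, so overlapping antisense genes cannot be told apart. The deposited values are raw counts per gene and mouse. From these, CPM were scaled by TMM factors in edgeR 4.0.16 (R 4.3.3, prior count 2 for log2 CPM). Genes with 1 CPM in more than 2 mice were kept, and 6 group means over all 50 mice were fitted by the quasi-likelihood test with Benjamini-Hochberg adjustment. A gene was called at an adjusted p below 0.05 together with a change of more than 1 on the log2 scale. Plus-minus values are SDs over 7 CTR-PBS or 6 ELS-PBS mice, and SE is that of the fitted log2 fold change. The members and lists were chosen with earlier results of these data known. The text names called genes, the 10 well-expressed genes of smallest p in each direction and, per list, the 3 of smallest p. Other members of the glucocorticoid list, mt-Rnr1, mt-Rnr2 and the genes of the PBS and P9 difference were chosen after their values were seen, and a few genes that the rule names are not reported here. On simulated counts for 16696 genes, 128 of 200 genes changed by a log2 fold change of 2 were recovered with 4 false calls. These counts were drawn independently for each mouse from 1 mean per gene, with no nests and no library like that of mouse P200_1.1_CTR_PBS. They check the code and do not give the error rate of the calls made here. Promoters came from RefSeq (GRCm38.p6), lengths and positions from GENCODE M39 (GRCm39). A group at 0 was given a limit of 3 counts, which covers counting error only. Alternatives used DESeq2 1.42.0 and limma 3.58.1, and permutations scipy 1.17.1.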

Additional observations from a re-analysis of the deposited data

Results flagged for a closer look

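In 168 groups of values checked, 32 had a single mouse far from the others of its group by Dixon's criterion, which chance meets in about 1 in 20 groups. Most were mouse P200_1.1_CTR_PBS, which also stood apart in the number of genes with counts (12854, next 17424) and in the share of ribosomal protein genes (1.95%, next 1.21%). It was the lowest CTR-PBS mouse, in CPM with the next mouse in parentheses, for Cry1 at 0 (2.69), Per1 at 0 (3.18), Trim27 at 4.48 (17.7), Trim35 at 112.9 (172), Rab6a at 3.10 (10.8) and Usp22 at 44.2 (98.3). It was the highest for Dubr at 35.1 (12.0), Ifitm3 at 27.0 (8.47), Tyrobp at 1675 (1114), Ptpn7 at 8.09 (0), Cox7a2 at 80.2 (42.7), Nptn at 181 (91.8), Rfx7 at 63.2 (17.9), Itpa at 38.6 (15.4) and 2410006H16Rik at 42.7 (14.0). The ribosomal protein genes Rpl30 at 128.6 (63.2), Rpl36a at 111.1 (54.8) and Rpl39 at 80.5 (34.3) were likewise highest in mouse P200_1.1_CTR_PBS.

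Other mice stood apart in single genes. Mouse P200_8.1_CTR_PBS was lowest for Mrps30 at 1.21 CPM (next 4.24) and highest for Neil3 at 0.354 CPM (next 0.0795). Mouse P200_15.1_CTR_PBS was highest for Cbr2 at 0.214 CPM (next 0), Map3k6 at 0.356 CPM (next 0.0709) and Gm10800 at 560.0 CPM (next 9.85), and mouse P200_18.1_CTR_PBS for Tmem178b at 0.0458 CPM (next 0). Among ELS-PBS mice, mouse P200_2.1_ELS_PBS was highest for Hsd11b1 at 0.818 CPM (next 0.0356) and in the share of ribosomal protein genes (1.21%, next 1.00%), and lowest for mt-Rnr2 at 921 CPM (next 1573). Mouse P200_20.2_ELS_PBS was highest for Clec7a at 13.2 CPM (next 10.3), and mouse P200_11.1_ELS_PBS for Serpinb6b and H2-Q5 at 0.0517 CPM each (next 0).

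The effect of ELS on Ddit4 differed between P200 mice given PBS and P9 pups by 3.60 on the log2 scale (edgeR adjusted p = 0.0324), with Ddit4 itself chosen on the P200 contrast. This difference was not fitted without mouse P200_4.1_ELS_PBS.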

How the results depend on the processing

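No paired analysis was possible because ELS-PBS and CTR-PBS mice share no label number. The 26 called genes, the 28 called at any fold and the 12 called well-expressed genes became 6, 6 and 2 with DESeq2 size factors in edgeR, 155, 178 and 45 with DESeq2, 191, 215 and 49 with edgeR's likelihood-ratio test, 7, 7 and 6 with counts summed per nest, 3, 3 and 2 with at least 1 CPM in at least 6 of the 13 PBS mice, 2, 2 and 1 with no filter, and 2, 2 and 1 with only the 25 P200 mice. The robust fit gave 24, 26 and 12. All 3 counts were 0 with limma voom and nest as a random effect (1696 genes at an unadjusted p under 0.05), with only the 13 PBS mice (1491) and with these without mouse P200_1.1_CTR_PBS (1646), an alternative chosen after seeing the data. Leaving out 1 mouse gave 1 to 75, 1 to 83 and 0 to 37. For the LPS contrast, 0 calls became 10 with the likelihood-ratio test and 2 with DESeq2, and for the difference of PBS and LPS 66 and 15. The 5 calls of PBS minus P9 became 29 and 20 with these tests and 0 with the stricter filter. With 1 mouse left out at a time, the log2 fold change of Ptpn7 was between -7.86 and 0.00 (0.00 without mouse P200_1.1_CTR_PBS) and that of Gm10800 between -3.14 and 0.54 (0.54 without mouse P200_15.1_CTR_PBS). The latter changed sign and the former lost all its counts. Small list medians changed sign too with single mice left out, among them those of the Cullin-RING (-0.01 to 0.05), microtubule (-0.04 to 0.04), aryl hydrocarbon receptor (-0.10 to 0.01) and circadian lists (-0.06 to 0.06). Under the other settings the glucocorticoid median was between 0.16 and 0.51 and the immediate early median between 0.04 and 0.57. Among the values of single genes 1334 kept direction and side of the threshold, 462 lost and 56 gained the threshold. The median of the red blood cell and choroid plexus markers has no value under the stricter filter, which leaves none of their genes. The cause of these changes was not tested.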
